A study of Hydra oligactis with 61 samples.

Results

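The transcripts described here fell during head regeneration in *Hydra oligactis*, stayed near their starting level during foot regeneration and were not strongly depleted in the uninjured foot. They were chosen on expression, from the deposited table of RNA counts, by 3 limits on L, the log2 of 1 plus the mean CPM (counts scaled to a library total of 1000000) of a group. L had to fall by at least 1 in head-regenerating tissue at 48 hours post amputation (hpa) relative to 0 hpa. It had to change by more than -0.5 over the same time in foot-regenerating tissue, and Foot less foot-regenerating tissue at 0 hpa had to lie above -3. Of 23396 transcripts, 313 met the first limit, 146 of those also met the second, and the third dropped 10 of them. The rule left out 1 of the 136 that remained, which gave 135 members. Libraries 1 to 4 of each wound at 0 hpa entered the rule, while libraries 5 to 7 did not.

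The study asked why *H. oligactis* of the Innsbruck 12 strain regrows heads readily but often fails to regrow a foot. Animals were bisected at mid-body. HR denotes tissue next to the oral-facing wound of the lower body piece, which regrows a head, and FR denotes tissue next to the aboral-facing wound of the upper body piece, which may or may not regrow a foot. At 0 hpa the HR and FR segments therefore come from either side of one cut. HR and FR animals received DMSO. The ALP group consisted of FR tissue from upper pieces kept in 5 µM alsterpaullone for the first 3 h after amputation and then washed. Alsterpaullone inhibits the kinase GSK3 and is used in *Hydra* to raise canonical Wnt signaling. Head and Foot are uninjured tissue from DMSO-treated animals. Each library was made from 30 pooled segments, so an FR pool mixes animals that would and would not have regrown a foot. There were 3 libraries each of HR, ALP and FR at 3, 12 and 24 hpa, 3 of HR, 4 of ALP and 3 of FR at 48 hpa, 7 each of HR and FR at 0 hpa, and 5 each of Head and Foot. The reads had been assigned to a transcriptome of another *H. oligactis* strain.

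*Hydra* keeps its oral-aboral axis by continuous signaling. A Wnt-expressing organizer at the mouth promotes head identity, and BMP-family ligands and foot transcription factors act near the basal disc. Column epithelial cells are displaced toward both ends and change identity when they reach the head or the foot. Regenerating tissue therefore both gains the genes of the new structure and loses those of the body column.

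The 61 libraries held 14.55 to 26.11 M counts each. Correlations between replicates were 0.982 to 0.992, and no pair agreed within sampling noise. The labelled tissues carried their markers. *wnt3*, the head organizer ligand, lay at 26.7 to 32 CPM in Head and 0 in all Foot libraries, and *dlx2*, a foot homeobox gene, at 70.6 to 82.1 CPM in Foot against 0.226 to 1.76 CPM in Head. HR tissue at 48 hpa had *wnt3* at 9.65 to 14 CPM. Since these are bulk pools, fewer cells of a type and less RNA per cell cannot be told apart in any of the values below.

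Of the 135 members 30 had a protein name, the best match as printed in the study's supplement, and 105 had none there. In the series 2568 of 23396 transcripts had one. A transcript with no printed name may still match a known protein. The named members fell into a few roles. Secreted signals and their regulators were 2 growth/differentiation factor 8 matches (GDF8, or myostatin, a TGF-beta family ligand that restrains muscle growth in mammals), DAN domain family member 5 and Cerberus (secreted antagonists of TGF-beta family ligands in vertebrates), and *tld* (tolloid, a metalloprotease that releases BMP ligands by cleaving Chordin in flies and vertebrates). Transcription factors were *nk2* (a homeobox gene of the *Hydra* foot), DMBX1-B (a paired-class homeobox protein of the vertebrate midbrain), vab-15 (an msh-class homeobox protein of *Caenorhabditis elegans*), and AP-2-beta. AT-rich interactive domain-containing protein 3A (ARID3A) also binds DNA. Many of the others matched enzymes or protease inhibitors. No member belonged to the lists of fibroblast growth factors, Notch genes, G-protein coupled receptors, matrix proteins, ion channels and transporters, EF-hand proteins, chitin enzymes, gland cell enzymes, stem and germ cell genes, neuropeptides, cell cycle genes or muscle proteins. These lists held 3 to 206 transcripts of the series each, and nothing is read from a count of 0 in lists of that size.

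The member that fell furthest by the rule was a GDF8 match, R001669c0g1_i01, and its coding end is shown because ligands of this family act through a cysteine-rich mature domain at the C terminus. The stretch covers bases 614 to 913 of a transcript of 1143 bases, up to the stop codon of an open reading frame of 298 codons. It was read from the study's assembled transcripts, 5′ to 3′, and capitals mark its 9 cysteine codons.
GDF8 match R001669c0g1_i01: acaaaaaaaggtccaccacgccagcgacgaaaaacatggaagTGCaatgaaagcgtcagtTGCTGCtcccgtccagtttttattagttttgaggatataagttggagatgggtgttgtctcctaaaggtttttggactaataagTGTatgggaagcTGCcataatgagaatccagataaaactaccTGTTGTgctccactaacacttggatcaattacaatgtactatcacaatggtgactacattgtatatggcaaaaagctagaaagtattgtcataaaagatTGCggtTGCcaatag
No genome was used here, so neither this nor any other member is given a chromosomal position.

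Together the members made up 0.455% of all counts in HR tissue at 0 hpa (0.435 to 0.487%, n = 7). The HR share was 0.408, 0.402 and 0.356% after 3, 12 and 24 h, and 0.178% at 48 hpa (0.154 to 0.203%, n = 3). In FR tissue it was 0.418% at 0 hpa (0.370 to 0.440%, n = 7) and 0.409, 0.317, 0.361 and 0.401% after 3, 12, 24 and 48 h. It was 0.0638% in Head and 0.298% in Foot. The HR share was thus lowest at the last time point, by the rule that picked the members, whereas the FR share was lowest at 12 hpa, a time the rule did not use. The median member stood at -0.15, -0.18 and -0.29 relative to HR 0 hpa after 3, 12 and 24 h, on the log2 (mean CPM + 1) scale and against all 7 libraries. Only 13 members were at or below -1 at 24 hpa, against 118 at 48 hpa, and all 3 HR libraries at 48 hpa lay below all 7 at 0 hpa for 129 members (22.0% of all transcripts tested), which follows from the rule. The median member had 23.1% of its 48 hpa change in HR tissue at 24 hpa (quartiles 7.2 and 40.3%), 25 members had at least 50%, and 29 lay above their 0 hpa level. The 24 hpa libraries belong to the second labelled batch and the 48 hpa libraries to the first, so in these shares batch and time cannot be told apart.

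**Figure D1:**
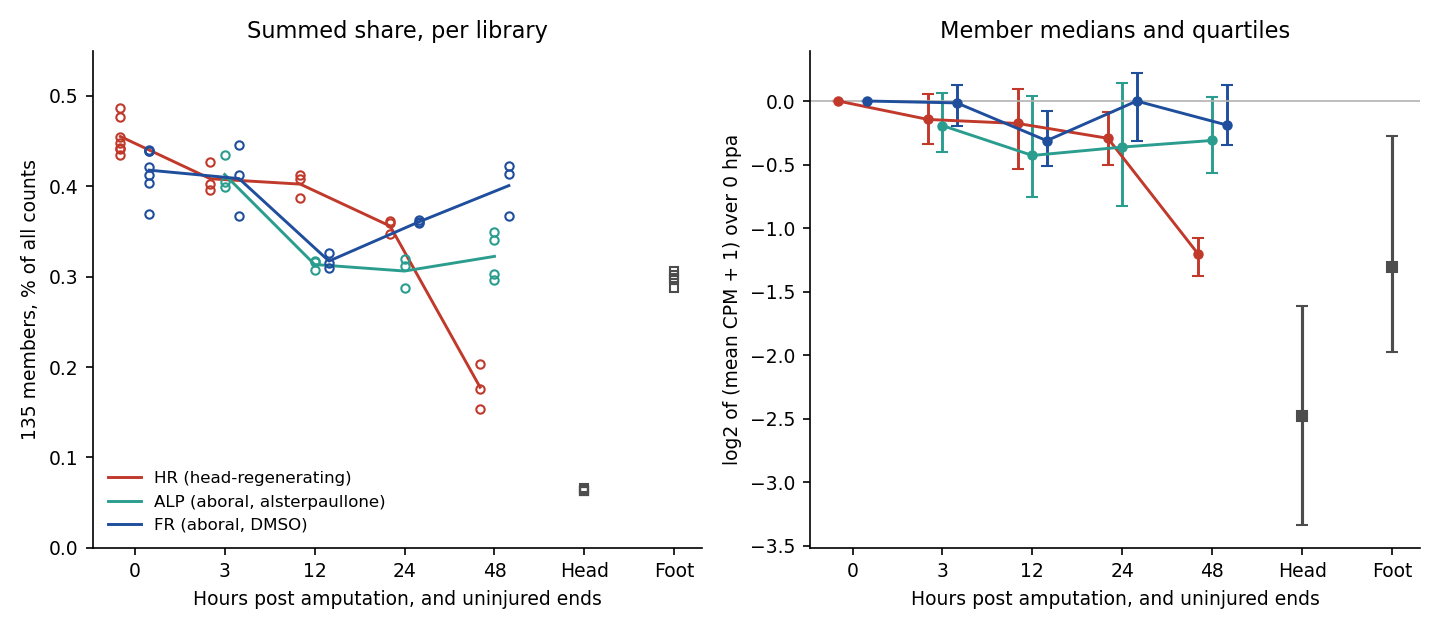
Left, summed counts of the 135 members as a percentage of each library's total (points, 1 per library) by time after amputation, for HR, ALP and FR tissue and for uninjured Head and Foot; right, the median member with quartiles, as log2 (mean CPM + 1) over 0 hpa of the same wound (ALP over FR 0 hpa). HR fell to 0.178% at 48 hpa, while FR stood at 0.401% and ALP at 0.323%.

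The rule's limits cut through a continuous range. Just inside the HR limit were R039911c0g1_i02, R041203c3g1_i02 and R033008c0g1_i01, at -1.0017, -1.0026 and -1.0054. Just outside it were R033835c0g2_i03, R031347c0g1_i01 and R041307c1g3_i04, at -0.9995, -0.9968 and -0.9961. At the FR limit the nearest members, R023897c0g1_i01, R041346c5g3_i02 and R040253c2g1_i01, lay at -0.4949, -0.4909 and -0.4879, and the nearest transcripts outside were R040732c2g1_i02 (plipastatin synthase subunit B) at -0.5016, R035365c0g1_i03 (a BPTI/Kunitz domain protein) at -0.5053 and R024576c0g1_i01 at -0.5138. Values ran on without a gap across both limits, so a transcript near one can fall on either side. At the Foot limit R031256c0g1_i01, R038105c0g3_i01 and R018468c0g1_i01 lay inside, at -2.9856, -2.9850 and -2.9622, and R033379c0g1_i02, R032598c0g2_i01 and R033525c0g1_i01 outside, at -3.0153, -3.0255 and -3.0800. All 135 members passed the filter on low counts.

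The values that chose the members are given as a description. GDF8 R001669c0g1_i01 stood at 0.602, 0.906 and 1.89 CPM in HR tissue at 48 hpa, against 15.5 to 23.0 CPM (median 19.7) in the 7 HR libraries at 0 hpa. It was still at 15, 13.3 and 14.58 CPM at 24 hpa, far above its 48 hpa values. The 24 hpa libraries belong to the second labelled batch and the 48 hpa libraries to the first. Batch and time can therefore not be told apart between 24 and 48 hpa, for this gene and those below. The homeobox gene vab-15 followed the same course, with 2.30, 3.30 and 4.25 CPM at 48 hpa, 19.0, 21.6 and 19.9 CPM at 24 hpa and 17.2 to 24.1 CPM at 0 hpa. DMBX1-B was also lower at 48 hpa, with 5.47, 7.35 and 15 CPM against 52.3, 49.1 and 52.1 CPM at 24 hpa. AP-2-beta had 12.2, 11.0 and 13.0 CPM at 48 hpa, against 35.8, 35.3 and 36.9 CPM at 24 hpa. None of these 4 was among the members called lower in HR tissue at 24 hpa relative to 0 hpa (edgeR, adjusted p under 0.01). In FR tissue at 48 hpa, GDF8 stood at 10.8, 12.4 and 18.1 CPM and vab-15 at 16.9, 13.6 and 18.1 CPM.

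**Figure D2:**
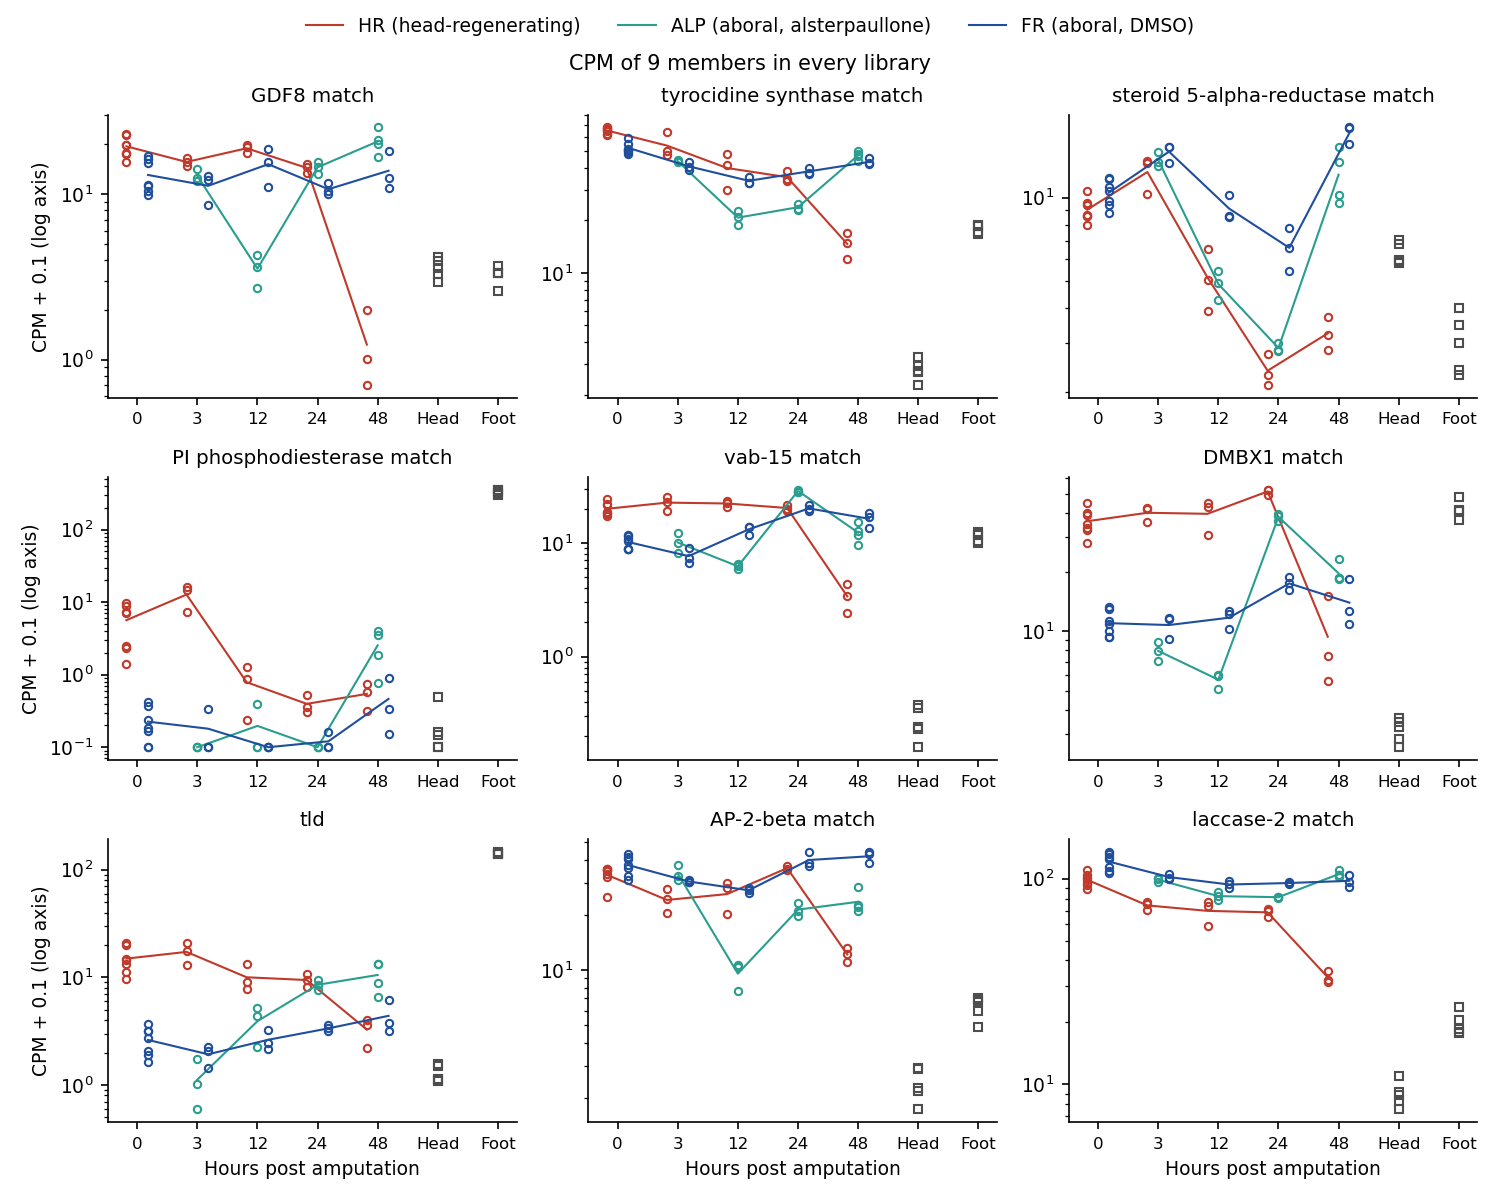
CPM plus 0.1 (log axis) of 9 members in every library, by group and time, with HR, ALP and FR side by side and Head and Foot at the right; ALP has no 0 hpa library. In HR tissue at 48 hpa GDF8 lay between 0.602 and 1.89 CPM and vab-15 between 2.30 and 4.25 CPM, whereas SRD5A1 was already at 2.02 to 2.65 CPM at 24 hpa.

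The FPKM scale corrects for transcript length and depth and so allows levels of different genes to be compared. On it the most abundant member in HR tissue at 0 hpa was R027474c0g2_i01, which had no protein name. It stood at 710.8 ± 73.8 FPKM (SD, n = 3, libraries 5 to 7). A match of Golgi-associated plant pathogenesis-related protein 1 (GAPR-1, of the CAP protein family) followed at 453.1 ± 44.8 FPKM, then R022911c0g1_i01 at 270.9 ± 26.5 FPKM and indolethylamine N-methyltransferase (INMT, which methylates tryptamines in mammals) at 204.5 ± 14.6 FPKM. These 4 lay far above the members' median of 13.0 FPKM (quartiles 5.87 and 24.8). R027474c0g2_i01 had 223.8 ± 48.3 FPKM in HR tissue and 684.2 ± 113.3 FPKM in FR tissue at 48 hpa. Next were R022550c0g1_i01, R036196c1g2_i01, ADP-ribosyl cyclase, R032997c2g1_i04, R026704c1g1_i01 and alpha-1-macroglobulin, between 139.9 and 52.5 FPKM.

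The 24 hpa libraries were not used to choose the members, and neither were libraries 5 to 7 of 0 hpa, which share their labelled batch. Between these, 26 members were lower and 3 higher in HR tissue at 24 hpa (edgeR quasi-likelihood test, Benjamini-Hochberg adjusted p under 0.01 over 17676 transcripts). Of all transcripts tested, 9.78% were lower and 11.2% higher, against 19.3% and 2.22% of the members. In a fit of these groups alone, 52 members were lower and 10 higher, with 15.1% and 16.6% of all transcripts. The median log2 fold change was -0.22 for the members and 0.00 for all transcripts tested.

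Among the members that fell were several enzyme matches and transcripts with no name, such as R038639c0g1_i01 (-2.36 ± 0.33, adjusted p = 8.97e-08) and R007999c0g1_i01 (-2.11 ± 0.37, adjusted p = 8.74e-06). SRD5A1 (3-oxo-5-alpha-steroid 4-dehydrogenase 1, a steroid 5-alpha-reductase in mammals) had 2.02, 2.20 and 2.65 CPM in HR tissue at 24 hpa against 8.55, 9.31 and 10.5 CPM at 0 hpa, a log2 fold change of -1.98 ± 0.19 (SE, adjusted p = 3.94e-12). The match of 1-phosphatidylinositol phosphodiesterase (PI-PDE, a bacterial enzyme that cleaves phosphatidylinositol) had 0.202, 0.429 and 0.258 CPM at 24 hpa against 9.78, 2.41 and 7.13 CPM at 0 hpa, a log2 fold change of -4.34 ± 0.72 (adjusted p = 5.02e-06). Both sets of libraries were fully separated, although the 0 hpa libraries of PI-PDE differed widely among themselves. The members from locus R038714 both matched alpha-1,6-mannosylglycoprotein 6-beta-N-acetylglucosaminyltransferase (MGAT5, which adds a branch to N-glycans). The more abundant, R038714c1g3_i02, had 3.85, 5.20 and 2.71 CPM at 24 hpa against 17.5, 14.7 and 26.5 CPM at 0 hpa, a log2 fold change of -2.23 ± 0.28 (adjusted p = 7.9e-09), and its partner R038714c2g1_i01 one of -2.29 ± 0.42 (adjusted p = 2.12e-05). For SRD5A1, PI-PDE and both MGAT5 transcripts, the mean level at 24 hpa was below that at 48 hpa. At 48 hpa SRD5A1 had 2.74, 3.62 and 3.11 CPM and R038714c1g3_i02 had 6.95, 10.4 and 7.71 CPM. The 2 times belong to different labelled batches, so batch and time cannot be told apart here.

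Other members fell less. Tyrocidine synthase 1, a match to a bacterial nonribosomal peptide synthetase, had 38.2, 34.2 and 33.3 CPM in HR tissue at 24 hpa against 62.4, 65.3 and 65.7 CPM at 0 hpa (log2 fold change -0.80 ± 0.10, adjusted p = 1.45e-08). ADP-ribosyl cyclase, which makes the calcium-releasing messenger cyclic ADP-ribose, had 60.1, 55.1 and 59.9 CPM against 97.4, 96.3 and 88.2 CPM (-0.62 ± 0.09, adjusted p = 6.44e-07). Laccase-2, a multicopper oxidase that tans insect cuticle, had 69.4, 70.8 and 65.3 CPM against 98.3, 101 and 89.3 CPM (-0.42 ± 0.09, adjusted p = 0.00013). All 3 were separated between these times. At 48 hpa, in the other labelled batch, all 3 were lower still, at 11.9 to 16.9, 40.8 to 49.8 and 31.3 to 35.7 CPM. The second GDF8 match, R037547c0g1_i01, had 2.94, 5.45 and 3.29 CPM against 8.68, 8.58 and 8.60 CPM (-1.09 ± 0.27, adjusted p = 0.0015). That call was lost without HR 24 hpa library 1 (log2 fold change -0.91) or library 3 (-0.99). The first match was not called lower at 24 hpa, but a difference in time course between the matches was not tested. The 3 members higher at 24 hpa had no protein name: R038546c0g1_i01 at 1.19 ± 0.27, R038961c0g1_i02 at 0.60 ± 0.15 and R041203c3g1_i02 at 0.56 ± 0.10, of which R038961c0g1_i02 lost its call without HR 0 hpa library 5 or library 7. Required to exceed a fold of 1.2, 16 of the 26 lower members were called (2.87% of all transcripts tested). With only the 6 libraries compared in the fit, 52 were (15.1% of all transcripts tested there).

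In FR tissue at 24 hpa, 19 members were lower and 10 higher than in FR tissue at 0 hpa of the same batch (10.1% and 9.28% of all transcripts tested, 14.1% and 7.41% of members). Of the 26 members lower in HR tissue at 24 hpa, 14 were also lower in FR tissue, 53.8% of the HR list and 73.7% of the FR list. The overlap was not counted over all transcripts, so it is not shown to be particular to the members. R038714c1g3_i02 was among the 14, with 4.61, 3.59 and 4.11 CPM at 24 hpa against 8.61, 14.7 and 13.1 CPM at 0 hpa (-1.53 ± 0.28, adjusted p = 2.49e-05). So was R027474c0g2_i01, with 137, 131 and 130 CPM against 348, 418 and 430 CPM (-1.55 ± 0.18, adjusted p = 2.66e-09). At 48 hpa this transcript stood at 458, 332 and 438 CPM in FR tissue, against 146, 99.6 and 154 CPM at the same time in HR tissue and 168, 161 and 168 CPM in HR tissue at 24 hpa. It was thus low in both wounds at 24 hpa and low only in HR tissue at 48 hpa, which the rule required. The 24 and 48 hpa libraries belong to different labelled batches. Transcription factors were among those that rose. The homeobox gene vab-15 had 19.1, 21.3 and 19.6 CPM in FR tissue at 24 hpa against 8.81, 11.7 and 8.70 CPM at 0 hpa (1.07 ± 0.15, adjusted p = 1.66e-07), and ARID3A had 7.30, 9.04 and 8.46 CPM against 3.18, 4.38 and 3.22 CPM (1.24 ± 0.26, adjusted p = 0.00018). Without FR 0 hpa library 5 the number of higher members was 4 (6.97% of all transcripts tested), and without library 7 it was 5 (6.06%).

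The change from 0 to 24 hpa differed between the wounds for 3 members, all lower in HR (0.0849% of all transcripts tested). SRD5A1 was lower by -1.31 ± 0.25 in HR relative to FR (interaction term, edgeR, adjusted p = 0.0013), since FR tissue kept 6.49, 7.68 and 5.34 CPM at 24 hpa against 11.5, 10.5 and 9.63 CPM at 0 hpa. Without HR 24 hpa library 1 its adjusted p was 0.0141, and SRD5A1 was no longer called. R033471c0g3_i01, without a protein name, had an interaction of -1.18 ± 0.23 (edgeR, adjusted p = 0.0013). It had 13.3, 13.3 and 15.1 CPM in HR tissue at 24 hpa against 22.7, 21.1 and 19.97 CPM at 0 hpa. In FR tissue it had 31.7, 34 and 33.5 CPM at 24 hpa against 20.1, 19.0 and 26.6 CPM at 0 hpa. It was lower in one wound and higher in the other, calls that were lost in 5 of 6 omissions of a single library for HR and 2 of 6 for FR, while its interaction was called whichever library was left out. For vab-15 the interaction was -0.94 ± 0.21 (adjusted p = 0.0074), with little change in HR tissue, and it was called in 1 of 12 omissions of a single library and lost in 11, with adjusted p between 0.0106 and 0.0494. No member was called higher in HR (0.453% of all transcripts tested were). At an unadjusted p under 0.05 there were 5, and DESeq2's Wald test called 1. Without FR 0 hpa library 5 edgeR called 1 higher (0.475% of all transcripts tested), and without HR 24 hpa library 1 it called 1 lower (0.0391%).

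**Figure D3:**
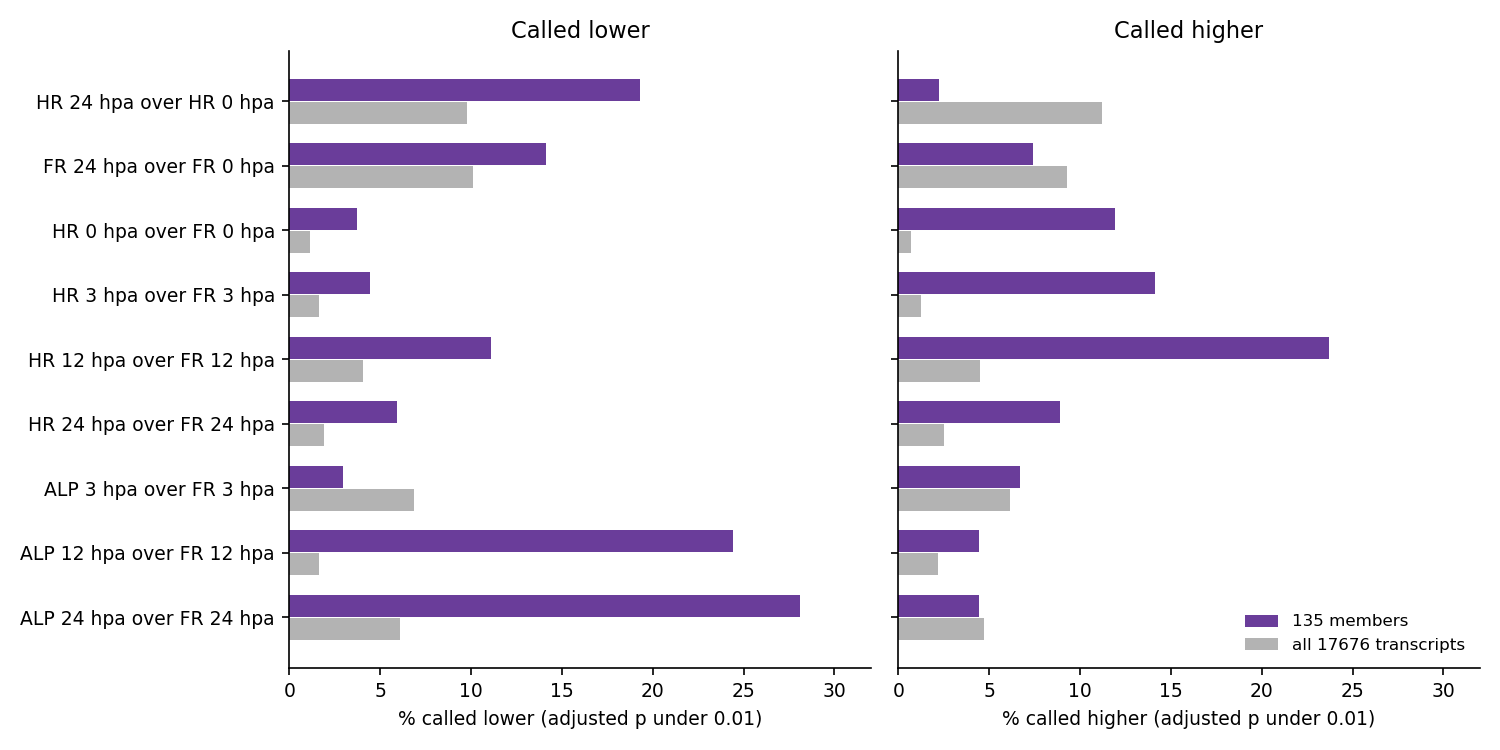
Percentage of the 135 members and of all 17676 transcripts tested that were called lower or higher (edgeR, adjusted p under 0.01). The 9 comparisons are between libraries that the rule did not use. Members higher in HR than in FR at 0 hpa were 11.9% against 0.668% of all transcripts, and members lower in ALP than in FR at 24 hpa were 28.1% against 6.06%.

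A subset of the members already differed between the segments on either side of the cut. In HR relative to FR tissue at 0 hpa (libraries 5 to 7), 16 members were higher and 5 lower (0.668% and 1.15% of all transcripts tested, 11.9% and 3.7% of members). Libraries 1 to 4 of both groups entered the rule, which favours a high level in HR and a low one in FR tissue at 0 hpa. The excess of higher members is therefore not independent of the rule. Several of the higher ones were genes high in the Foot. The metalloprotease gene *tld* had 14.9, 11.2 and 20.8 CPM in HR tissue against 1.52, 3.08 and 2.63 CPM in FR tissue (log2 fold change 2.62 ± 0.29, adjusted p = 1.84e-09). The transcription factor gene *nk2* had 7.54, 8.16 and 10.9 CPM against 2.72, 3.35 and 2.88 CPM (1.53 ± 0.19, adjusted p = 2.15e-08). DAN domain family member 5 had 6.52, 6.36 and 8.60 CPM against 0.729, 1.57 and 1.36 CPM (2.48 ± 0.28, adjusted p = 3.31e-09). In each of these all HR libraries lay well above all FR libraries. *kiaa1958*, named as a foot gene in the study, had 2.29, 1.88 and 3.90 CPM in HR tissue, and 0, 0 and 0.0424 CPM in FR tissue, where the last value stands for 1 count. The DNA-binding proteins DMBX1-B, with 38.9, 33.6 and 44.7 CPM against 11.2, 12.8 and 9.88 CPM (1.76 ± 0.19, adjusted p = 7.61e-10), and ARID3A, with 18.4, 13.4 and 28.2 CPM against 3.18, 4.38 and 3.22 CPM (2.43 ± 0.24, adjusted p = 9.27e-11), showed the same order. Ras-like protein family member 11B, a small GTPase, had 4.72, 3.91 and 5.94 CPM against 0.398, 1.19 and 0.424 CPM (2.81 ± 0.36, adjusted p = 1.23e-07). PI-PDE (5.41 ± 0.80), steroid 17-alpha-hydroxylase (2.59 ± 0.36) and vab-15 (0.96 ± 0.15) were also higher in HR.

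Part of this difference varied within the HR group. Libraries 1, 3 and 6 were the 3 lowest of 7 at 0 hpa for *tld*, *kiaa1958* and PI-PDE, with 9.58, 13.1 and 11.2 CPM for *tld*. Foot marker *dlx2*, which is no member, stood at 2.53 to 5.02 CPM (median 3.90) in HR and 1.79 to 3.62 CPM (median 2.46) in FR tissue at 0 hpa, far from its 70.6 to 82.1 CPM in Foot. The part of this shift in foot marker level in the result was not tested. The 5 members lower in HR were R038125c0g3_i06 (-1.74 ± 0.25), R050311c0g1_i01 (-0.72 ± 0.17), R041203c3g1_i02 (-0.44 ± 0.10), Roundabout homolog 3 (an axon guidance receptor, -0.41 ± 0.10) and laccase-2 (-0.40 ± 0.09). Their number was 2 without FR library 5 or 6 or HR library 5 and 1 without HR library 7, and R038125c0g3_i06 was called in all of these. Of all transcripts tested, 0.994, 0.771, 0.777 and 0.71% were lower in these fits, in that order.

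The HR excess was present at 3 and 12 hpa, while at 24 hpa it was kept by some members only. At 3 hpa 19 members were higher and 6 lower in HR than in FR tissue (1.26% and 1.65% of all transcripts tested, 14.1% and 4.44% of members), and 15 of the 16 from 0 hpa were among the 19, which are 93.8% of the first list and 78.9% of the second. The same overlap over all transcripts was not counted. At 12 hpa 32 were higher and 15 lower (4.52% and 4.06%, 23.7% and 11.1% of members), and the member median was 0.43 against -0.02 for all transcripts. At 24 hpa 12 were higher and 8 lower (2.51% and 1.89%, 8.89% and 5.93% of members), and 23 and 20 in a fit of these groups alone (6.04% and 6.62%). The member median at 24 hpa was -0.08 against 0.00 for all transcripts, with 84 members below 0 and 51 above. The libraries of these times were separate from one another, and 9 members were higher in HR at 0, 3, 12 and 24 hpa: *tld*, *nk2*, *kiaa1958*, DAN domain family member 5, DMBX1-B, ARID3A, Ras-like 11B, R032587c0g2_i03 and R040071c3g1_i03. For *tld* the log2 fold changes at these 4 times were 2.62 ± 0.29, 3.23 ± 0.31, 1.98 ± 0.30 and 1.53 ± 0.29, in that order. DMBX1-B stayed at 1.76 ± 0.19, 1.93 ± 0.19, 1.73 ± 0.19 and 1.56 ± 0.18, differences within their errors. At 24 hpa *kiaa1958* had 2.48, 3.18 and 3.16 CPM in HR tissue and 0 in all FR libraries, and was at least 59.3-fold higher in HR, with 3 counts over the FR group as the floor. At 12 hpa the *nk2* call (0.66 ± 0.18, adjusted p = 0.0077) was lost in 4 of 6 omissions of a single library, and that of DAN domain family member 5 in 3 of 6, without FR library 2 or HR library 1 or 2. The number of higher members at 12 hpa was 16 without FR library 2, 20 without HR library 1 and 21 without HR library 2 (2.03, 2.88 and 3.46% of all transcripts tested). The number of lower ones was 6 without HR library 4 (1.53%).

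By 48 hpa the order had turned for some of these genes, as the rule on HR made likely. DMBX1-B had 5.47, 7.35 and 15 CPM in HR against 10.8, 12.6 and 18.2 CPM in FR tissue, with overlapping ranges. *tld* had 2.08, 3.52 and 3.90 CPM in HR against 3.65, 6.11 and 3.10 CPM in FR tissue, also overlapping. *nk2* had 1.86, 3.25 and 2.64 CPM in HR against 3.99, 5.46 and 3.90 CPM in FR tissue, with no overlap. The level of these foot genes in HR tissue at 48 hpa was thus close to that of FR tissue at 0 hpa, where *tld* lay between 1.52 and 3.54 CPM and *nk2* between 2.23 and 3.45 CPM.

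Other members were lower in HR than in FR tissue before 48 hpa. R038125c0g3_i06 had 0.709, 1.41 and 1.61 CPM in HR and 6.49, 5.39 and 4.82 CPM in FR tissue at 24 hpa (-2.18 ± 0.29, adjusted p = 1.41e-07), and was lower at 0, 3 and 12 hpa as well. SRD5A1 did not overlap between HR, at 2.02, 2.20 and 2.65 CPM, and FR, at 6.49, 7.68 and 5.34 CPM (-1.49 ± 0.20, adjusted p = 9.6e-08). At 12 hpa SRD5A1 was lower by -0.86 ± 0.17 (adjusted p = 0.00023). The second GDF8 match had 4.40, 1.59 and 5.38 CPM in HR against 10.6, 13.2 and 10.7 CPM in FR tissue at 12 hpa (-1.65 ± 0.27, adjusted p = 2e-05). It was not called at 0, 3 or 24 hpa.

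Most members were far lower in uninjured Head than in the body column. In Head relative to HR tissue at 0 hpa (libraries 5 to 7), 127 of 135 were lower and 3 higher (37.2% and 36.0% of all transcripts tested, 94.1% and 2.22% of members), with a member median of -3.11 and a median of -0.02 over all transcripts. The fall was 8-fold or more for 83 members, 61.5% of them and 7.58% of all transcripts. Tyrocidine synthase 1 had 2.17 to 3.20 CPM (median 2.62) in the 5 Head libraries against 62.4, 65.3 and 65.7 CPM in HR tissue (-4.28 ± 0.11, adjusted p = 8.64e-37). vab-15 had 0.0594 to 0.271 CPM in Head against 18.1, 18.5 and 21.3 CPM (-6.42 ± 0.24, adjusted p = 2.8e-30). These were separated by more than an order of magnitude. *kiaa1958* was at 0 in all Head libraries, at least 78.1-fold lower, and *nk2* and DAN domain family member 5 had 2 counts each over the Head group. GDF8 R001669c0g1_i01 kept 2.85 to 4.06 CPM in Head (-2.19 ± 0.19, adjusted p = 3.17e-15), more than its 0.602 to 1.89 CPM in HR tissue at 48 hpa. SRD5A1, at 5.75 to 6.95 CPM in Head, was above its 2.74 to 3.62 CPM in HR tissue at 48 hpa too. The 3 members higher in Head were R035145c0g1_i01 (1.61 ± 0.17), R024791c0g1_i01 (1.27 ± 0.22) and arginase-1, which converts arginine to ornithine (0.51 ± 0.14, with overlapping CPM).

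Foot levels entered the rule, which barred only strong depletion there, and are described without a test. All 5 Foot libraries lay below all 14 of 0 hpa for 87 members (64.4%, against 32.5% of all transcripts tested) and above all 14 for 16 (11.9%, against 19.4%). Foot levels of the named members spanned a wide range. PI-PDE had 301 to 356 CPM, *kiaa1958* 168 to 180 CPM, *tld* 139 to 147 CPM, alpha-1-macroglobulin 125 to 144 CPM and *nk2* 60.3 to 64.6 CPM in Foot, all far above mid-body. Laccase-2, at 17.6 to 23.7 CPM in Foot against 89.3 to 135 CPM at 0 hpa, AP-2-beta, at 4.80 to 6.97 CPM against 25.1 to 43.1 CPM, and GDF8, at 2.49 to 3.56 CPM against 9.72 to 23.0 CPM, were low in Foot and Head alike. Others lay between, such as vab-15 at -0.39, ARID3A at 0.67 and DMBX1-B at 0.79 in Foot over mid-body, as a difference of log2(mean CPM + 1). Of the 16 members higher in HR than FR tissue at 0 hpa, 8 had Foot above all 0 hpa libraries and 0 had it below. Of the other 119, 8 had it above and 87 below. Foot and 0 hpa levels both entered the rule, and the same split was not counted over all transcripts. It is therefore not shown to be particular to the members.

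**Figure D4:**
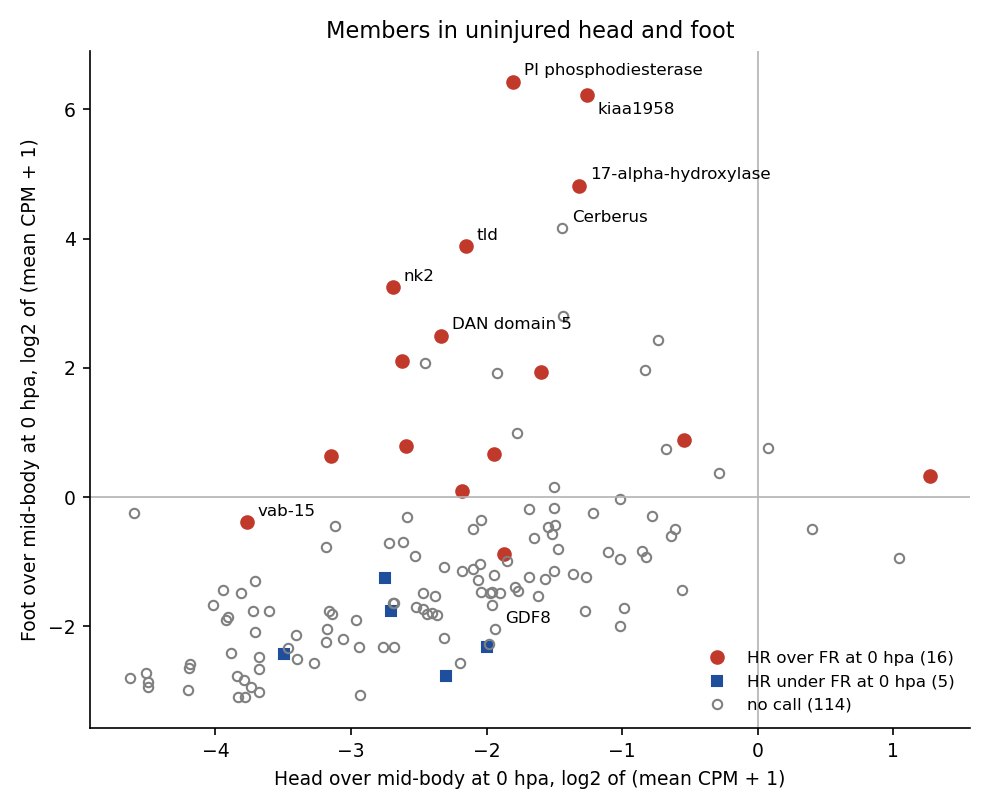
Each of the 135 members as log2 (mean CPM + 1) in Head (x axis) and Foot (y axis) over mid-body, the mean of HR and FR tissue at 0 hpa, coloured by the HR against FR test at 0 hpa (16 higher, 5 lower, 114 not called). The median lies at -2.30 for Head, where 131 members are below 0, and at -1.30 for Foot, where 110 are below 0 and the highest reaches 6.43.

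The levels of the cell type lists differed between times as well, and their part in the result was not tested. The 8 neuropeptide transcripts summed to 205 to 245 CPM in HR tissue at 48 hpa, 97.8 to 108 CPM at 24 hpa and 55.8 to 70.9 CPM at 0 hpa, while in FR tissue they summed to 140 to 156 CPM at 48 hpa and 87.2 to 97.6 CPM at 0 hpa. The 6 stem and germ cell genes summed to 1768 to 1891 CPM in HR tissue at 48 hpa against 2334 to 2606 CPM at 0 hpa, and to 637 to 695 CPM in Head. In FR tissue they summed to 1925 to 2083 CPM at 48 hpa and 2214 to 2431 CPM at 0 hpa. The 24 cell cycle genes summed to 1101 to 1214 CPM in HR tissue at 48 hpa against 1335 to 1556 CPM at 0 hpa, and in FR tissue to 1111 to 1208 CPM against 1386 to 1532 CPM. The 32 gland cell enzymes overlapped in both, at 1876 to 2095 CPM against 1837 to 2035 CPM in HR tissue and 2311 to 2399 CPM against 2117 to 2335 CPM in FR tissue.

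Members differed between ALP and FR tissue in both directions. More were lower in ALP at 12 and 24 hpa than at 3 hpa, while the number called higher did not grow in the fit of all libraries. At 3 hpa, at the end of treatment, 4 members were lower and 9 higher in ALP than in FR tissue (6.86% and 6.16% of all transcripts tested, 2.96% and 6.67% of members). The lower ones were R037457c0g3_i01, R038031c0g1_i01, R038714c1g3_i02 and R034043c0g1_i01, between -1.67 and -0.69, and R038714c1g3_i02 lost its call in 4 of 6 omissions of a single library. Their number was 1 without FR library 1 (5.1% of all transcripts tested) and 2 without ALP library 1, 3 or 4 (4.3, 5.11 and 5.48%). Among the higher ones, the match of atrial natriuretic peptide receptor 1, a receptor guanylate cyclase, had 29.7, 22.5 and 24.0 CPM in ALP against 17.5, 17.1 and 18.8 CPM in FR tissue (0.62 ± 0.12, adjusted p = 7.18e-05).

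At 12 hpa, 33 members were lower and 6 higher in ALP than in FR tissue (1.62% and 2.19% of all transcripts tested, 24.4% and 4.44% of members), with medians of -0.24 for the members and -0.01 for all transcripts. In a fit of these groups alone, 20 members were higher, with 4.14% of all transcripts. GDF8 R001669c0g1_i01 had 4.18, 2.61 and 3.55 CPM in ALP against 10.9, 15.6 and 18.8 CPM in FR tissue (-2.16 ± 0.23, adjusted p = 7.18e-10). AP-2-beta had 10.6, 7.55 and 10.3 CPM against 28.1, 26.2 and 27.3 CPM (-1.57 ± 0.14, adjusted p = 7.54e-12). DMBX1-B had 5.00, 5.81 and 5.93 CPM against 10.2, 12.1 and 12.6 CPM (-1.10 ± 0.22, adjusted p = 0.00049), and vab-15 had 5.77, 6.19 and 6.41 CPM against 13.7, 13.8 and 11.6 CPM (-1.14 ± 0.16, adjusted p = 1.09e-06). The signal and all 3 factors were separated between the groups and were called whichever library was left out. Tyrocidine synthase 1 was lower by -0.75 ± 0.11, SRD5A1 by -0.96 ± 0.17 and the second GDF8 match by -1.06 ± 0.25, the last of these in 3 of 6 omissions of a single library only. Of the 6 higher members *kiaa1958* was the only named one, with 0.464, 2.32 and 1.38 CPM against 0.238, 0.163 and 0.137 CPM (2.83 ± 0.66, adjusted p = 0.0037), and its call was lost without FR library 1, 2 or 4 or ALP library 2. The number of higher members was 2, 2 and 3 without FR library 1, 2 or 4 (1.46, 1.19 and 1.32% of all transcripts tested), and 1 without ALP library 2 (1.6%).

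At 24 hpa, 38 members were lower and 6 higher in ALP (6.06% and 4.73% of all transcripts tested, 28.1% and 4.44% of members). In a fit of the 2 groups compared alone, 22 members were higher, with 8.48% of all transcripts. The 4 genes just described had parted. GDF8 stood at 15.6, 13.2 and 14.5 CPM in ALP against 9.99, 11.6 and 10.3 CPM in FR tissue and was not called. AP-2-beta was still lower, with 23.3, 19.7 and 21.0 CPM against 38.3, 44.2 and 37.2 CPM (-0.91 ± 0.13, adjusted p = 3.44e-07). DMBX1-B was now higher, with 39.1, 36.4 and 38.5 CPM against 18.8, 16 and 17.4 CPM (1.11 ± 0.18, adjusted p = 5.92e-06). vab-15 was higher by 0.50 ± 0.14 (adjusted p = 0.0074), with 28.1, 29.3 and 28.1 CPM against 19.1, 21.3 and 19.6 CPM, a call lost in all 6 omissions of a single library. DMBX1-B and ARID3A turned from lower values at 12 hpa to a called rise at 24 hpa: ARID3A had 2.94, 2.61 and 2.12 CPM in ALP against 5.17, 5.13 and 4.60 CPM in FR tissue at 12 hpa, and 19.1, 19.3 and 20.9 CPM against 7.30, 9.04 and 8.46 CPM at 24 hpa (1.25 ± 0.22, adjusted p = 2.21e-05). The difference between the 12 and 24 hpa effects was not tested.

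The other risers at 24 hpa in the fit of all libraries were foot genes. The share of members called higher in that fit, 4.44%, was no larger than the 4.73% of all transcripts tested. *tld* had 9.25, 7.59 and 8.41 CPM in ALP against 3.24, 3.47 and 3.05 CPM in FR tissue (1.37 ± 0.29, adjusted p = 0.00046). *kiaa1958* had 2.83, 2.80 and 3.21 CPM in ALP and 0 in all FR libraries, at least 60.3-fold higher. *nk2* had 6.48, 7.42 and 5.59 CPM against 4.21, 3.53 and 3.24 CPM (0.82 ± 0.19, adjusted p = 0.00098), a call lost without FR library 3 or ALP library 2. The 6 members called higher in ALP at 24 hpa in the fit of all libraries were among the 16 higher in HR than FR tissue at 0 hpa, which is 37.5% of the 16, while the fit of the compared groups alone called 22. How far these calls overlap over all transcripts was not counted. The ALP levels of *tld* overlapped those of HR tissue at 24 hpa, 8.05, 9.25 and 10.7 CPM, whereas those of *nk2* lay below the HR levels of 8.15, 9.92 and 9.16 CPM. Both were far below Foot.

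Most of the fallers at 24 hpa had no protein name. R007999c0g1_i01 had 5.92, 4.04 and 4.83 CPM in ALP against 1.34, 1.44 and 1.53 CPM in FR tissue at 3 hpa (1.88 ± 0.38, adjusted p = 0.00023). It had 0.412, 0.145 and 0.265 CPM against 5.09, 2.81 and 1.86 CPM at 12 hpa (-3.64 ± 0.51, adjusted p = 1.02e-06), and 0.126, 0.117 and 0.111 CPM against 2.69, 2.91 and 2.85 CPM at 24 hpa (-4.52 ± 0.64, adjusted p = 3.59e-07). The ALP and FR libraries never overlapped, with ALP above FR at 3 hpa and below it at both later times. R033471c0g3_i01, whose change to 24 hpa differed between HR and FR tissue, showed the same turn, with differences of 0.93 ± 0.18, -1.34 ± 0.17 and -2.30 ± 0.18 at 3, 12 and 24 hpa. Among named members at 24 hpa SRD5A1 had 2.90, 2.74 and 2.71 CPM in ALP against 6.49, 7.68 and 5.34 CPM in FR tissue (-1.22 ± 0.19, adjusted p = 2.32e-06), ADP-ribosyl cyclase was lower by -0.53 ± 0.09 and INMT by -0.88 ± 0.13. The receptor guanylate cyclase, higher at 3 hpa, had 10.8, 10.8 and 10.6 CPM against 23.2, 22.5 and 20.6 CPM (-1.05 ± 0.12, adjusted p = 2.39e-09). Of the 33 members lower in ALP at 12 hpa, 20 were also lower at 24 hpa, 60.6% of the first list and 52.6% of the second. Of the 26 lower in HR tissue at 24 hpa, 9 were lower in ALP at 24 hpa (34.6% of the HR list and 23.7% of the ALP list), among them SRD5A1, tyrocidine synthase 1, ADP-ribosyl cyclase and INMT. Neither overlap was counted over all transcripts.

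**Figure D5:**
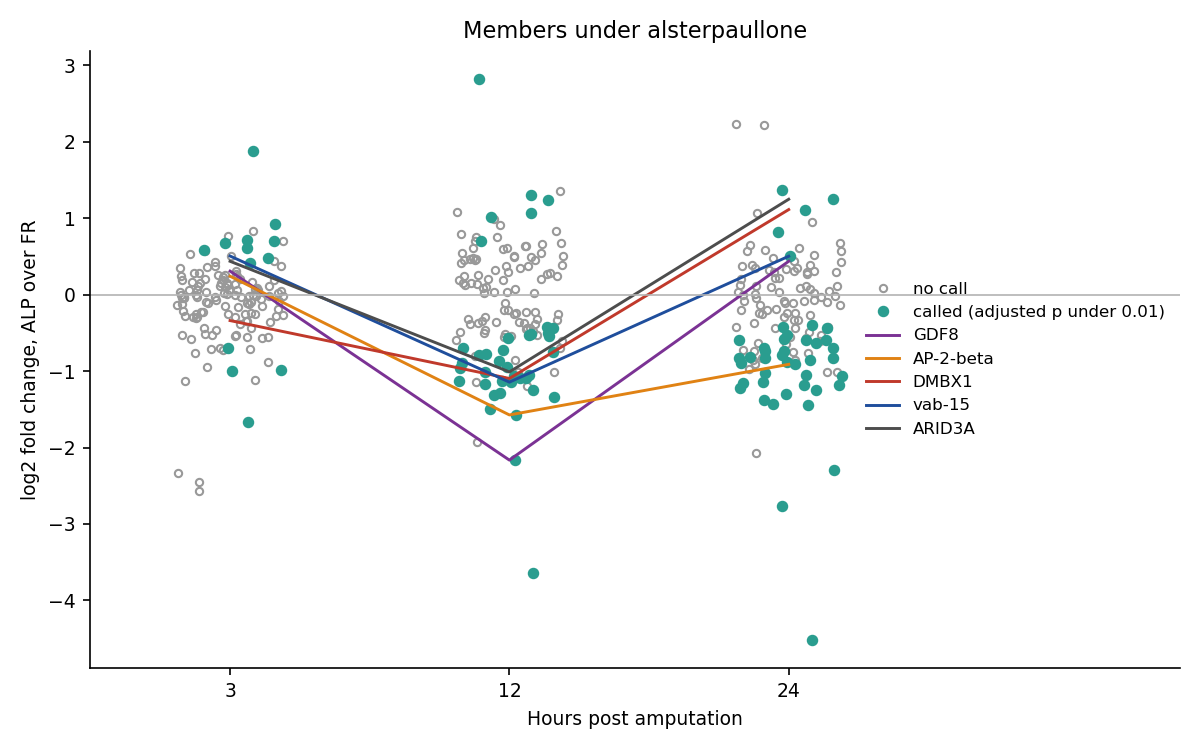
Log2 fold change of ALP over FR tissue at 3, 12 and 24 hpa, 1 point per member (134, 134 and 133 drawn, leaving out those with a group at 0 counts), with lines for GDF8 R001669c0g1_i01, AP-2-beta, DMBX1-B, vab-15 and ARID3A. GDF8 lies at -2.16 at 12 hpa only, and DMBX1-B goes to -1.10 at 12 hpa and 1.11 at 24 hpa.

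The other genes of these roles were counted in the same tests, with the shares and medians over all transcripts given above. Names came only from the study's supplement, where many were printed for genes that it had called changed in these same data. The counts below are therefore partly set by that choice. They are a description, and nothing is read from how they compare with all transcripts. Of the 50 signals and antagonists of BMP, TGF-beta and Wnt in the annotation, 3 were lower and 12 higher in HR tissue at 24 hpa relative to 0 hpa (median 0.17), and 11 were lower and 32 higher in Head, with a median of 2.32. In ALP at 12 hpa 2 were lower and 7 higher, and both that were lower were the GDF8 matches. Of 99 transcription factors, 3 were lower and 32 higher in HR tissue at 24 hpa (median 0.22), and in ALP 11 were lower and 9 higher at 12 hpa and 15 lower and 16 higher at 24 hpa. Of 53 lectins, macroglobulins and complement-like proteins, which include alpha-1-macroglobulin and pregnancy zone protein (protease inhibitors), 2 were lower and 12 higher in HR tissue at 24 hpa (median 0.32). Of 46 oxidases, peroxidases and monooxygenases, which include laccase-2 and steroid 17-alpha-hydroxylase, 15 were lower and 7 higher there (median -0.19).

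There were 7 loci with 2 members each, so that the 135 members come from 128 loci. Reads shared by transcripts of one locus can be split between them, and values of R022405, R036478, R038031, R038714, R038961, R039420 and R041203 are uncertain for that reason. At R038961 the 2 isoforms went opposite ways between wounds at 24 hpa, with isoform i01 higher in HR by 0.77 ± 0.11 and isoform i02 lower by -0.64 ± 0.14, whereas in ALP at 24 hpa both were lower, by -0.74 ± 0.12 and -2.77 ± 0.17. Isoform i02 lost its call between the wounds in 1 of 6 omissions of a single library.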

How the data were processed

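The authors trimmed reads with Trimmomatic (0.39 per the labels, another version elsewhere in the study), aligned them to a transcriptome with Bowtie2 and deposited RSEM expected counts and FPKM per transcript. Expected counts were rounded (5.326% were not whole). Column names matched 30 libraries to 1 sample and 31 to a group only. The 4 deposited FPKM columns of HR tissue at 3 hpa were not used. edgeR 4.0.16 (R 4.3.3, TMM, filterByExpr with a minimum count of 10, quasi-likelihood F test) was fitted to all 61 libraries with 18 cell means, which split 0 hpa by labelled batch (libraries 1 to 4 and 5 to 7), and p-values were adjusted by Benjamini-Hochberg over 17676 transcripts, with calls under 0.01. SE is the fold change over the root of F. DESeq2 1.42.0 served as an alternative. The code was tested on simulated data.

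Head and Foot comprise both labelled batches. Each library is a pool of tissue from different animals, called a biological replicate by the study. Separate cultures are not stated, so p-values measure the spread between these pools.

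The members, the 16 role lists and the tests were chosen with earlier results of these data known. Named were the study's named genes, up to 8 named members per direction at HR 24 hpa and 4 per direction in each ALP comparison, up to 5 per role list, 10 by FPKM and 3 nearest to each limit. Roundabout homolog 3, Ras-like 11B, and transcripts given by ID outside these rules were chosen after their values were seen. Alternatives were DESeq2's size factors and its Wald test, no low-count filter, a minimum fold of 1.2, a batch term added to the model, fits on the compared groups alone, a replicate block and leaving out each library.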

Additional observations from a re-analysis of the deposited data

Results flagged for a closer look

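Of 188 groups of 4 to 7 libraries looked at among the named members, 6 held a library far from the others, and chance gives about 1 in 20. *kiaa1958* stood at 168.1 CPM in Foot library 2 against 176.8 to 179.9 CPM in the other Foot libraries, and steroid 17-alpha-hydroxylase at 63.78 CPM in Foot library 1 against 75.66 to 79.64 CPM. HR 0 hpa library 1 was the lowest of its group for 2 members, the second GDF8 match R037547c0g1_i01 (4.331 CPM against 6.856 to 8.682 CPM) and AP-2-beta (25.07 CPM against 32.25 to 35.84 CPM). That library entered the rule and the fit of all libraries, but none of the comparisons tested in that fit. DMBX1-B stood at 23.19 CPM in ALP 48 hpa library 3 against 18.36 to 18.46 CPM, and ARID3A at 8.796 CPM in FR 0 hpa library 4 against 3.181 to 4.842 CPM.

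The change to 24 hpa differed between the wounds, by the interaction term, for SRD5A1 (-1.31), R033471c0g3_i01 (-1.18) and vab-15 (-0.94), on the log2 scale as HR less FR.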

How the results depend on the processing

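DESeq2's size factors and the absence of a low-count filter moved none of the 22 counts of members by over 1.5 times. DESeq2's Wald test moved 1, the members whose change to 24 hpa was higher in HR than FR, to 1 (0.713% of all transcripts tested, the share given in parentheses from here on). With a minimum fold of 1.2, the lower members numbered 16 in HR at 24 against 0 hpa (2.87%), 9 in FR at 24 against 0 hpa (2.92%), 1, 2, 5 and 5 in HR against FR after 0, 3, 12 and 24 h (0.594%, 0.713%, 0.685% and 0.9%), and 1, 19 and 23 in ALP after 3, 12 and 24 h (2.9%, 0.407% and 1.62%). The higher ones numbered 4 in FR at 24 hpa (2.85%), 15 in HR against FR at 12 hpa (0.928%), and 4 and 1 in ALP at 3 and 12 hpa (0.255% and 0.815%). With an additive batch term the higher members were 5 in HR at 24 hpa (12.8%), 1 for the change between wounds (1.01%) and 27 in HR against FR at 0 hpa (1.47%). With only the groups compared, lower and higher members were 52 and 10 in HR at 24 hpa (15.1% and 16.6%) and 20 and 23 in HR against FR at 24 hpa (6.62% and 6.04%), 2 were higher for the change between wounds (1.08%), 7 lower in ALP at 3 hpa (6.38%), and 20 and 22 higher in ALP at 12 and 24 hpa (4.14% and 8.48%). The cause of these shifts was not tested.

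Same-numbered libraries did not deviate together, with correlations of 0.0049 to 0.0121 for HR and FR at 24 hpa and -0.12 to -0.0178 at 0 hpa. For ALP and FR at 24 hpa the correlations were -0.000774 to 0.0179. Shared numbers thus gave no sign of pairing in these groups. Other times were not checked, and so few libraries per group cannot settle whether samples were paired under other numbers. With a replicate block, 20 members were lower and 23 higher in HR than FR at 24 hpa (6.49% and 5.95%), 1 lower at 0 hpa (0.706%) and 21 higher in ALP at 24 hpa (9.01%).

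Leaving out each library gave 19 to 24 lower and 2 to 3 higher members in HR at 24 against 0 hpa, 14 to 18 and 4 to 8 in FR at 24 against 0 hpa, 1 to 4 and 0 to 1 for the change between wounds, and 125 to 127 and 3 to 3 in Head. The shares of all transcripts tested were 7.59 to 8.66% and 8.16 to 9.02% for HR. They were 7.61 to 9.55% and 6.06 to 6.98% for FR, and 35.1 to 36.7% and 34.4 to 35.7% for Head. For the change between wounds they were 0.0391 to 0.0726% and 0.324 to 0.475%. For HR against FR after 0, 3, 12 and 24 h, the lower members were 1 to 4, 4 to 8, 6 to 13 and 7 to 9, and the higher ones 13 to 17, 15 to 18, 16 to 31 and 11 to 12. Over all transcripts, 0.71 to 0.994%, 1.04 to 1.27%, 1.36 to 2.87% and 1.27 to 1.48% were lower. The shares higher were 0.447 to 0.62%, 0.766 to 1.19%, 2.03 to 3.55% and 1.87 to 2.11%. For ALP after 3, 12 and 24 h, the lower members were 1 to 5, 23 to 26 and 27 to 35, and the higher ones 7 to 9, 1 to 6 and 4 to 5. Over all transcripts, 4.3 to 5.48%, 0.737 to 1.1% and 3.72 to 4.62% were lower in ALP. The shares higher in ALP were 3.41 to 5.03%, 1.1 to 2.17% and 3.26 to 4.29%.

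Of 187 calls of 42 named members in the 11 comparisons, a minimum fold of 1.2 ended 48, only the groups compared 9, the block 3, the batch term 2, no filter 2, DESeq2's Wald test 1 and its size factors 0. Omissions of a single library ended a call in 123 of 1220 cases. No call changed direction. Low counts limit *kiaa1958*, *nk2* and DAN domain family member 5 in Head and FR tissue.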

Other observations

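ALP tissue at 48 hpa entered neither the rule nor a tested comparison, although its libraries were part of the fit. It had 8 members at or above 1 log2 unit over FR tissue at 0 hpa and 3 at or below -1. The median member lay at -0.31, on the log2 (mean CPM + 1) scale. The FR 0 hpa mean includes libraries 1 to 4, which entered the rule. These counts were not made over all transcripts. Most of the 8 were foot-high members. *kiaa1958* had 3.27, 4.11, 5.79 and 6.16 CPM in ALP against 1.28, 1.02 and 0.107 CPM in FR tissue at 48 hpa, with no overlap. *tld* had 6.49, 8.68, 13.2 and 13.3 CPM in ALP against 3.65, 6.11 and 3.10 CPM in FR tissue. PI-PDE had 0.673 to 3.85 CPM in ALP against 0.0535 to 0.803 CPM in FR tissue, which overlapped. ARID3A, raised in ALP at 24 hpa, was at 4.09 to 6.19 CPM in ALP against 5.20 to 8.29 CPM in FR tissue at 48 hpa, again overlapping.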
